A study of Homo sapiens with 18 samples.

Results

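The comparison described here is the addition of Curcumin to oxaliplatin (OXA) in the HTOXAR3 cell line, and its members are 6 of the 18 arrays of the series, chosen by sample title. HTOXAR3 was derived from HT29, a human colorectal adenocarcinoma cell line, and has acquired resistance to OXA. A group of 3 arrays came from HTOXAR3 cells given 30 µM OXA for 24 h, and the other 3 from HTOXAR3 cells given 30 µM OXA together with 10 µM Curcumin for 24 h. Both groups therefore received OXA and differ in Curcumin, and a group with Curcumin alone was not analysed here. The labels call the 3 samples of each group biological replicates. HTOXAR3 is a single derived line, so the replicates share 1 origin. RNA was read on one-colour Agilent arrays, and every value below is a log2 intensity after normalisation or a difference of such intensities, so that a difference of 1 is a doubling. Where HT29 is named, its treated cells received 10 µM OXA with or without 10 µM Curcumin, so line and OXA dose change together there. Untreated cells of either line, 3 arrays each, are given for reference where named.

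Curcumin is a polyphenol of turmeric with an electrophilic part that reacts with thiol groups of proteins. Thiol-reactive compounds are known inducers of the NRF2 pathway, in which release of the factor NRF2 from its inhibitor KEAP1 switches on enzymes that detoxify oxidants, and of the heat shock response, in which HSF1 switches on chaperones. OXA is a platinum drug whose DNA adducts block replication, and NF-κB, a family of factors that drives chemokine and survival genes, is a known target of Curcumin.

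Between 56.9% and 62.0% of non-control spots were well above background on the arrays with OXA plus Curcumin and between 62.3% and 63.2% on those with OXA. Replicates 1 of both groups lay on one slide and replicates 2 and 3 of both groups on another. Epithelial markers were present as the labels imply, with 11 of 14 colon epithelium markers well above background on all 6 arrays, although *CDX2* was on none. Of 8 fibroblast markers 0 were above background on all 6 arrays and 5 were on none. Of 7 leukocyte markers measured 5 were above background on all 6 arrays, with a summed log2 level of 11.28 to 11.29 after OXA plus Curcumin and 11.14 to 11.20 after OXA, and of 5 endothelial markers 3 were, with sums of 8.36 to 8.49 and 8.48 to 8.65. The epithelial sums were 19.75 on all arrays with OXA plus Curcumin and 19.55 to 19.57 on those with OXA. The part of these differences in the results was not tested. A change in RNA per cell and a change in the share of cells of one state cannot be told apart in such bulk samples.

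Adding Curcumin changed a large share of the transcriptome of OXA-treated HTOXAR3 cells. Of 36203 gene names tested 3198 were called, which is 8.83% of them, 1602 higher (4.43%) and 1596 lower (4.41%). A name was called where limma with Benjamini-Yekutieli (BY) adjustment over all names gave an adjusted p below 0.05 and the fold change was above 1.2. Large changes were mostly rises, since 261 of the 363 called names beyond 2-fold were higher. The median over all names was -0.02, and the groups did not overlap for 31.9% of all names. Among the 19441 names well above background on all 6 arrays, 16% were called, 7.94% higher and 8.08% lower. The spread was estimated over all 18 arrays, and with the 6 arrays alone 223 names were called, 219 of them among the 3198 and 180 of them higher. Without OXA plus Curcumin replicate 3 the count was 1968. With replicate numbers as a block it was 2617.

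The largest rise was that of *HSPA6*, an inducible chaperone of the HSP70 family that is nearly silent in unstressed cells. Its log2 intensities were 12.82, 12.47 and 12.98 after OXA plus Curcumin and 6.50, 6.61 and 6.47 after OXA. All 3 arrays with Curcumin lay far above all 3 without it, by 6.23 (SE 0.15), or 74.8-fold (adjusted p = 6.17e-10, limma with BY). A dimmer second probe gave a change of 4.02, and transcripts of the near-identical copy *HSPA7* may contribute to both. *SDCBP2*, which encodes the PDZ adaptor syntenin-2, followed at 11.77, 11.59 and 11.82 after OXA plus Curcumin and 7.52, 7.31 and 7.65 after OXA, a change of 4.24 (SE 0.12). The groups were again wide apart. *AKR1C1*, an aldo-keto reductase that reduces reactive carbonyls and steroids, rose by 3.96 (SE 0.19), and *AKR1C8* of the same gene family by 3.81 (SE 0.15). Probes for *AKR1C1* may also capture its close relative *AKR1C2*, and the dimmer *AKR1C1* probe above background gave 2.53. A second *AKR1C8* probe, not above background on any of the 6 arrays, gave -0.33, and the mean of both *AKR1C8* probes changed by 1.74.

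Next came *TRIM54*, a RING-finger protein known from muscle, at 9.55, 9.57 and 9.89 after OXA plus Curcumin and 5.94, 6.12 and 6.28 after OXA. That difference of 3.56 (SE 0.12) separated the groups without overlap. Cytoskeletal genes followed, with the actin-binding *SYNPO* at 3.25 (SE 0.37) and the microtubule-binding *MAP1A* at 3.12 (SE 0.36), and then the complement protease *C1S*, at 8.38, 8.34 and 8.48 after OXA plus Curcumin and 5.38, 5.51 and 5.03 after OXA. For *SYNPO* and *C1S* the size depended on the probe, as other *SYNPO* probes gave 1.18 and 0.88 and a dim *C1S* probe 0.88. *HMOX1*, which degrades haem, was at 13.97, 13.73 and 13.85 after OXA plus Curcumin and 10.92, 10.72 and 10.71 after OXA. Its change was 3.06 (SE 0.11), and its mean of 12.64 in untreated HTOXAR3 lay between the 2 treated groups. *GABARAPL1*, an ATG8-family protein of autophagosomes, changed by 3.02 (SE 0.11), the proteasome-associated stress protein gene *ZFAND2A* by 2.97 (SE 0.13) and the hypoxia- and stress-responsive *NDRG1* by 2.74 (SE 0.31).

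**Figure D1:**
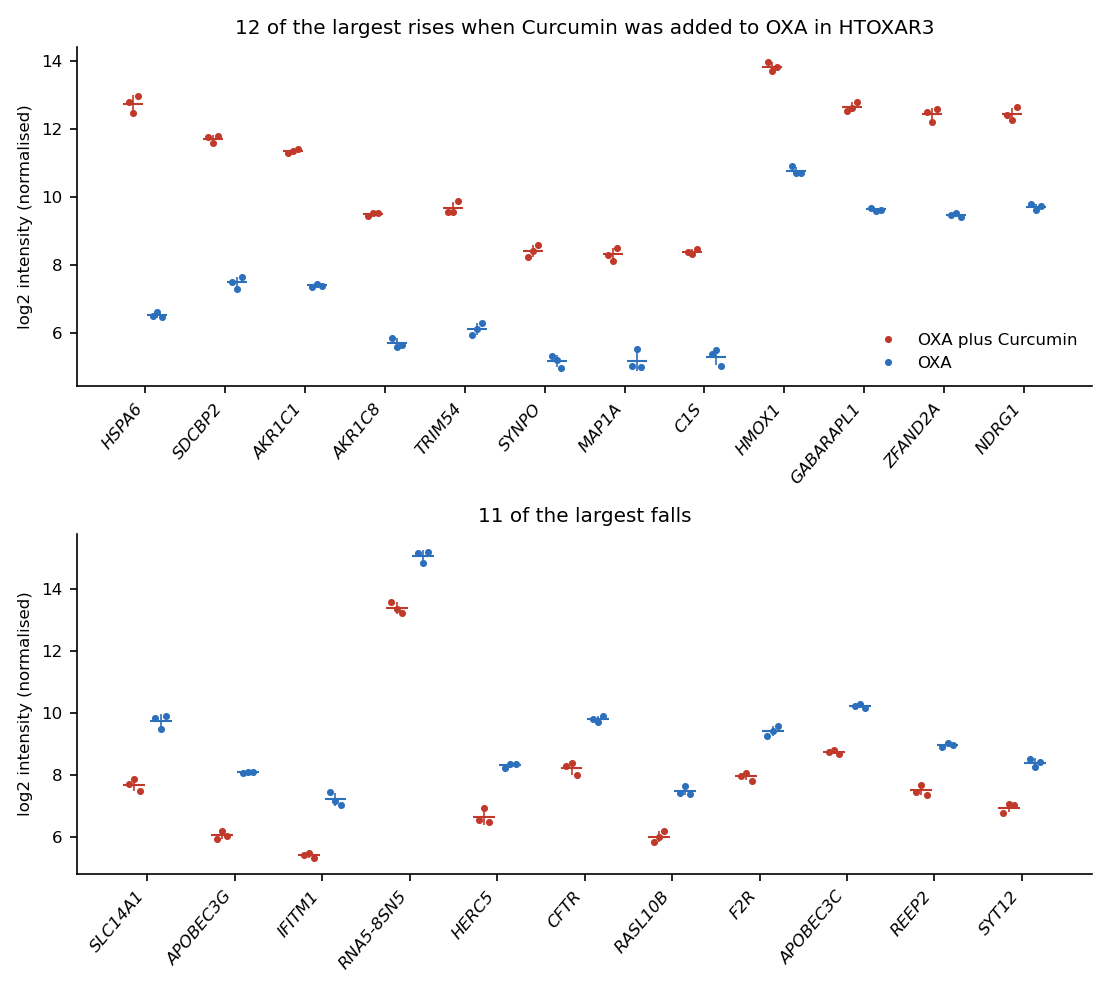
Log2 intensity of 12 genes with the largest rises and 11 with the largest falls, all called and well above background on each of the 6 arrays, in HTOXAR3 after OXA plus Curcumin (red) and OXA (blue). Points are arrays, horizontal lines are group means and vertical lines the SD (n = 3), with *HSPA6* between 12.47 and 12.98 after the combination and between 6.47 and 6.61 after OXA.

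The falls were smaller. *SLC14A1*, a urea transporter gene, stood at 7.70, 7.87 and 7.49 after OXA plus Curcumin and 9.83, 9.50 and 9.90 after OXA, a change of -2.05 (SE 0.18) (adjusted p = 3.43e-05, limma with BY) that its other probes gave as -1.93 and -1.75. *APOBEC3G*, a cytidine deaminase that restricts retroviruses, was at 5.96, 6.19 and 6.06 after OXA plus Curcumin and 8.08, 8.10 and 8.10 after OXA. Here the 3 OXA arrays were nearly equal and the change was -2.03 (SE 0.27).

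Other large falls were those of the ribosomal RNA gene *RNA5-8SN5* (-1.68), the ISG15 ligase *HERC5* (-1.66), the chloride channel *CFTR* (-1.58), the small GTPase *RASL10B* (-1.47), the thrombin receptor *F2R* (-1.46), *APOBEC3C* (-1.46), *REEP2*, which shapes the endoplasmic reticulum (-1.46), and the synaptotagmin *SYT12* (-1.45). The second *F2R* probe gave -0.49, and a dim *SYT12* probe gave 0.07, so that the mean of both *SYT12* probes was not called. *IFITM1*, an antiviral membrane protein, changed by -1.80 (SE 0.35) with an adjusted p of 0.0235 (limma with BY). Its call was lost with any 1 of the 6 arrays left out (limma with BY, adjusted p up to 0.13) and with replicate numbers as a block (adjusted p = 0.0544).

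NRF2 targets and proteasome genes held the most rises, 28 each. Of 37 measured NRF2 targets 28 rose and 0 fell, a share of 75.7% against the 8.83% of all names, and the median change was 0.58 against -0.02 over all names. With 1 array left out 23 to 24 rose, and 12 did with the 6 arrays alone. Beside *AKR1C1* and *HMOX1*, rises above background on all 6 arrays included those of *OSGIN1*, an oxidative stress growth inhibitor (2.12), the carbonyl reductase *CBR3* (1.85) and the ferritin light chain *FTL* (1.68). *OSGIN1* was at 10.05, 10.17 and 10.28 after OXA plus Curcumin and 8.08, 8.18 and 7.86 after OXA, with no overlap. *CYP4F11*, a fatty acid hydroxylase, was not well above background on any OXA array and was at least 4.45-fold higher after OXA plus Curcumin, a bound that holds for an offset of 0 in normexp, the background correction used. With offsets of 16 and 50 the fitted change of *CYP4F11* was 1.46 and 0.81. At offset 0 it was 2.52 (SE 0.54), had an adjusted p of 0.0496 (limma with BY) and lost the call with any 1 array left out (adjusted p up to 0.217) or with replicate numbers as a block (adjusted p = 0.0974).

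Rising members came from several branches of the NRF2 programme. In the thioredoxin branch these were *SRXN1* (0.92), *TXNRD1* (0.86), *TXN* (0.38) and *PRDX1* (0.35), and in glutathione synthesis and recycling they were *GSR* (0.86), the cystine importer *SLC7A11* (0.56) and *GCLC* (0.50). The enzymes that supply NADPH included *ME1* (1.04) and *PGD* (0.32). *NQO1*, the classical quinone reductase target, was at 10.14, 10.15 and 10.14 after OXA plus Curcumin and 9.37, 9.43 and 9.34 after OXA. It rose by 0.76 with little spread in either group. *SQSTM1*, the autophagy receptor that binds KEAP1, rose by 1.17. Not called were *NFE2L2*, which encodes NRF2 itself (-0.19), its inhibitor *KEAP1* (0.16), *GCLM* (0.40), *FTH1* (0.11), *TALDO1*, *TKT*, *ABCC2*, *ABCC3* and *SLC6A6*.

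Proteasome genes moved with as large a share and much less spread between members. Of 37 measured subunit and assembly genes 28 rose and 0 fell, with a median of 0.41, and 21 to 25 rose with 1 array left out. Only 1 was called with the 6 arrays alone. *PSMC4*, an ATPase of the regulatory particle, was at 14.35, 14.38 and 14.56 after OXA plus Curcumin and 13.19, 13.34 and 13.29 after OXA. It had the largest rise of the list, 1.16 (SE 0.07) (adjusted p = 1.89e-06, limma with BY), and the groups did not overlap. The deubiquitinase *PSMD14* (0.80), the lid subunit *PSMD12* (0.76) and the catalytic subunits *PSMB5* (0.38) and *PSMB7* (0.59) rose as well. Of the interferon-inducible activator genes *PSME1* had a change of -0.30 and *PSME2* of -0.21, neither called, while the immunoproteasome subunit *PSMB8* of the interferon list fell by 0.64. The activator *PSME4* rose by 0.68 on its brightest probe, but other probes gave 0.23 and 0.20 and the mean over its probes was not called.

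Both lists are linked to the antioxidant response element, the DNA sequence that NRF2 and its relative NRF1 bind, so promoters were searched for its core letters. In the 250 bases before the annotated start of 27305 RefSeq promoters (GRCh38.p14), TGACNNNGC was found on either strand in 11.0% of all promoters, in 8 of the 26 matched NRF2 targets (30.8%) and in 7 of 32 matched proteasome genes (21.9%). Its letters overlap with those of AP-1 sites. Of the matched members that rose 7 of 20 NRF2 targets and 4 of 25 proteasome genes held a match, against 1 of 6 and 3 of 7 of those not called. These counts describe letters in a window and not sites. *TXNRD1* and *PSMD12* are shown as called members of either list with a match, in capitals, read 5′ to 3′ along the gene.
TXNRD1, chr12:104215529-104215778, plus strand: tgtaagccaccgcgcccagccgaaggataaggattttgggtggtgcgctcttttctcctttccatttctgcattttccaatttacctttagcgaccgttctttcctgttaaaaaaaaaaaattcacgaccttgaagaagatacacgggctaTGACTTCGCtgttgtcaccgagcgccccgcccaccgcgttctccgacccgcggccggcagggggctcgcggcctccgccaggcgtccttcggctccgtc
PSMD12, chr17:67366578-67366827, minus strand: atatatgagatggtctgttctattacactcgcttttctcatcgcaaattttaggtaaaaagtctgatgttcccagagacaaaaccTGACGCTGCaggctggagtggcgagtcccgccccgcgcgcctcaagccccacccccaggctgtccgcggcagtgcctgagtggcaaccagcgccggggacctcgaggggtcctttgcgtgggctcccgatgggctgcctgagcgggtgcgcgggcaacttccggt

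Heat shock genes split by member. Of 35 measured 12 rose and 0 fell, with a median of 0.12, and 5 rose with the 6 arrays alone. *HSPA1A* was at 14.90, 14.62 and 14.96 after OXA plus Curcumin and 13.25, 13.25 and 13.27 after OXA and *HSPA1B* at 14.53, 14.34 and 14.57 after OXA plus Curcumin and 13.01, 12.96 and 12.97 after OXA, with changes of 1.57 and 1.50. The groups lay apart for both genes, although these copies are nearly identical and cannot be told apart by such probes with certainty. The co-chaperone *BAG3* rose by 1.45 and *DNAJB1* by 0.35. The BAG3 partner *HSPB8* changed by 2.48 (SE 0.52), a call lost with any 1 array left out (adjusted p up to 0.185, limma with BY) and with replicate numbers as a block (adjusted p = 0.134). The constitutive chaperones *HSPA8* (-0.02), *HSP90AA1* (0.11), *HSP90AB1* (0.21), *HSPD1* (-0.19) and *HSPE1* (-0.09) were not called, nor was the factor *HSF1* (-0.14).

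A heat shock element, the inverted repeat bound by HSF1, was searched on both strands as the blocks GAA, TTC and GAA with NN between neighbouring blocks. It was found in 0.439% of all promoters and in 5 of 31 matched heat shock promoters (16.1%), 2 of 12 among those that rose and 3 of 19 among the others. The *HSPA6* promoter held 1 match, in capitals.
HSPA6, chr1:161524290-161524539, plus strand: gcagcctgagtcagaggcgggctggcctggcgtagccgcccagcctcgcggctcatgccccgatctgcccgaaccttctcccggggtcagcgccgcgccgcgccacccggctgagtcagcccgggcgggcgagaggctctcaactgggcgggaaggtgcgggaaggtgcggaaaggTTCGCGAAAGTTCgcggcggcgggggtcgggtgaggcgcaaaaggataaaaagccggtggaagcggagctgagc

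Genes of the unfolded protein response and of ATF4, the factor of the amino acid and integrated stress response, gave 14 rises and 3 falls of 39 measured, with a median of 0.25. The chaperone co-factor *DNAJB9* was at 11.57, 11.47 and 11.66 after OXA plus Curcumin and 9.95, 9.93 and 9.90 after OXA. It rose by 1.64 (SE 0.10), and *HSPA5* (0.60), *HERPUD1* (1.12) and *DNAJC3* (0.75) rose as other endoplasmic reticulum genes. Among ATF4 targets the cystathionase *CTH* (1.52), *DDIT4* (1.32), *ASNS* (1.16), *CHAC1* (1.06) and *DDIT3* (0.77) rose. Untreated HTOXAR3 had means of 8.48 for *CTH*, 9.90 for *DDIT4* and 14.74 for *ASNS*. After OXA plus Curcumin they were 9.61, 10.29 and 14.81. The 3 that fell, *PSPH* (-0.47), *SHMT2* (-0.39) and *PHGDH* (-0.35), encode enzymes of serine and glycine synthesis. With 1 array left out 1 to 2 of the list fell, and with the 6 arrays alone 3 rose and 0 fell. *ATF4* itself had a change of -0.08 and was not called.

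Iron and haem genes gave 5 rises and 0 falls of 21, and 4 of the 5 were called with the 6 arrays alone. This share of 23.8% stands beside rises of 4.43% of all names and 7.94% of those above background on all 6 arrays. Beside *HMOX1* and *FTL*, both also in the NRF2 list, the biliverdin reductase *BLVRB* was at 15.58, 15.61 and 15.69 after OXA plus Curcumin and 14.15, 14.22 and 14.21 after OXA. This rise of 1.44 (SE 0.05) was accompanied by rises of *ALAS1*, which starts haem synthesis (0.83), and of the ferritin receptor *NCOA4* (0.40). The transferrin receptor *TFRC* (-0.04) and the exporter *SLC40A1* (0.03) were not called.

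Metallothioneins, small zinc- and copper-binding proteins, went the other way. Of the 16 genes of the metallothionein and zinc list 8 fell and 1 rose, with a median of -0.54, and 0 were called with the 6 arrays alone. *MT1X* was at 12.46, 12.47 and 12.48 after OXA plus Curcumin and 13.12, 13.19 and 13.17 after OXA and *MT2A* at 14.82, 14.84 and 14.96 after OXA plus Curcumin and 15.45, 15.37 and 15.51 after OXA. Both sets of arrays lay apart, with changes of -0.69 and -0.57. The gene that rose was the zinc exporter *SLC30A1* (0.38), while the zinc-sensing factor *MTF1* was at 0.03 and not called. Near-identical *MT1* copies may share signal, so the 8 falls are not 8 separate measurements.

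**Figure D2:**
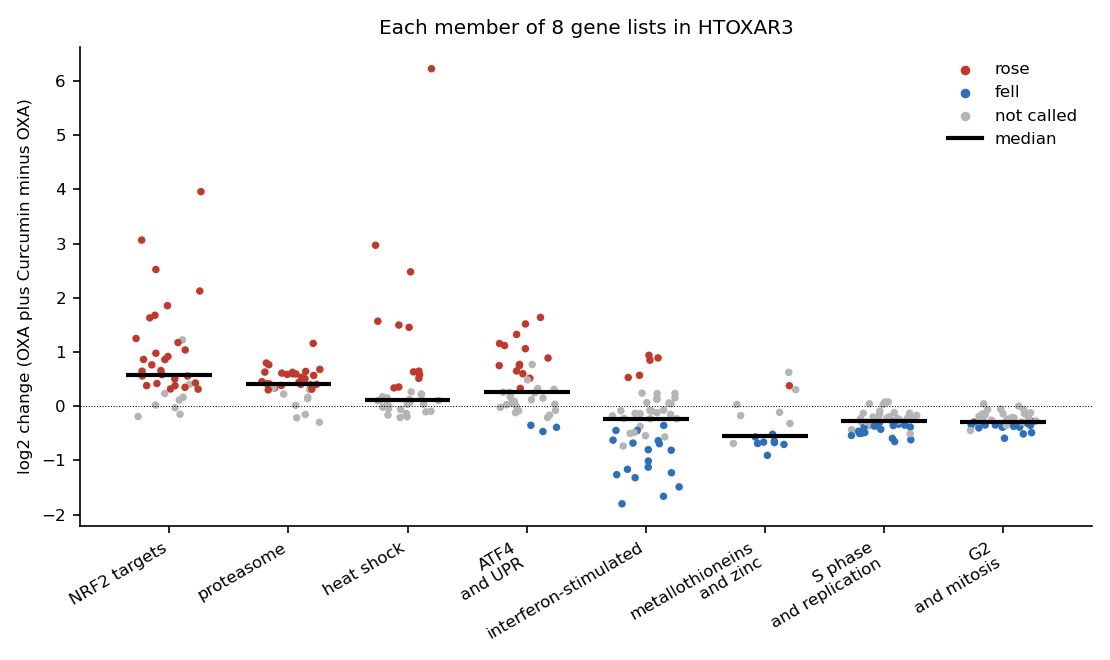
Log2 change (OXA plus Curcumin minus OXA, HTOXAR3) of every measured member of 8 gene lists, 1 point per gene, red where it rose, blue where it fell and grey where it was not called, with the median as a black line. NRF2 targets and proteasome genes have medians of 0.58 and 0.41, whereas heat shock genes have a median of 0.12 and the highest single value, *HSPA6* at 6.23.

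Among interferon-stimulated genes falls outnumbered rises. Of 51 measured 18 fell, 5 rose and 28 were not called, with a median of -0.23, and 10 to 15 fell with 1 array left out. With the 6 arrays alone 4 fell and 1 rose. *IFIT1*, which binds foreign RNA, was at 11.36, 11.68 and 11.27 after OXA plus Curcumin and 12.69, 12.76 and 12.82 after OXA. Its change was -1.32 (SE 0.18) (adjusted p = 0.00171, limma with BY). *HERC5*, which attaches ISG15 to proteins, was at 6.55, 6.93 and 6.48 after OXA plus Curcumin and 8.22, 8.35 and 8.37 after OXA, and again no array with Curcumin reached the OXA arrays. The family members *IFIT2* (-1.17) and *IFIT3* (-1.12), the oligoadenylate synthetases *OASL* (-1.26), *OAS2* (-1.01) and *OAS3* (-0.63), the RNA sensors *RIGI* (-0.69) and *IFIH1* (-0.68), and *ISG15* (-0.45) fell. *MX1* (-0.23) and *IFI6* (-0.09) were not called. The 5 that rose were the antigen-presenting *HLA-C* (0.94), *HLA-B* (0.89) and *HLA-E* (0.85) and the factors *IRF7* (0.57) and *STAT2* (0.53). Class I HLA genes share long stretches of sequence, so these 3 may not be independent.

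The interferon-stimulated response element was searched on both strands as a pair of TTTC blocks with NN between them, letters that IRF family motifs share. It was found in 3.07% of all promoters and in 21 of 40 matched interferon-stimulated promoters (52.5%), in 11 of 16 members that were called and 10 of 24 that were not. *IFIT1* and *HERC5* are shown as strongly falling members with 2 and 3 matches, in capitals.
IFIT1, chr10:89392373-89392622, plus strand: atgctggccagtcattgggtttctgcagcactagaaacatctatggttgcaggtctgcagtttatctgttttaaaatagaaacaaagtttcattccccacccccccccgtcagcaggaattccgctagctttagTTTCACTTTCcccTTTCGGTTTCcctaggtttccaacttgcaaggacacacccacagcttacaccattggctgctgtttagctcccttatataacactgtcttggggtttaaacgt
HERC5, chr4:88456869-88457118, plus strand: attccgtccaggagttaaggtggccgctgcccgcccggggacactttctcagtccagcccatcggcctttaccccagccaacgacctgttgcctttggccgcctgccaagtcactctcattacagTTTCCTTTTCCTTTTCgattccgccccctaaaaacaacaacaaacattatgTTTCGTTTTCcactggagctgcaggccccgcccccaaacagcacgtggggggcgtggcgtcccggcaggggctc

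Calls in the lists of S phase and replication and of G2 and mitosis were all falls, of small size, and most members were not called. Of 47 S phase and replication genes 19 fell and 0 rose (median -0.28), and of 46 genes of G2 and mitosis 19 fell and 0 rose (median -0.29). None of these was called with the 6 arrays alone. With 1 array left out 11 to 14 of the S phase genes and 5 to 12 of the G2 and mitosis genes fell, with 5 for the latter on leaving out 1 of the arrays. *MCM7*, a subunit of the replicative helicase, was at 16.53, 16.65 and 16.50 after OXA plus Curcumin and 17.19, 17.23 and 17.24 after OXA. The groups did not overlap and the change was -0.65 (SE 0.06), with a second probe at -0.65. The polymerase subunits *POLA1* (-0.62) and *POLD3* (-0.59) and *TYMS* (-0.43) also fell, while *PCNA* (-0.17), *E2F1* (-0.19) and *CCNE1* (0.08) were not called.

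In G2 and mitosis the kinase gene *AURKB* was at 10.09, 10.27 and 10.00 after OXA plus Curcumin and 10.62, 10.76 and 10.52 after OXA, a change of -0.51 (SE 0.08). *CDK1* (-0.38), *KIF11* (-0.38), *CCNB2* (-0.29) and *UBE2C* (-0.37) fell too, and *PLK1* (-0.05), *CCNB1* (-0.06), *AURKA* (-0.06) and *MKI67* (-0.45) were not called. *TOP2A*, the mitotic topoisomerase, had the largest change of the list, -0.59 (SE 0.11) with an adjusted p of 0.017 (limma with BY), but lost its call on leaving out 5 of the 6 arrays in turn (adjusted p up to 0.118). The cell cycle homology region, bound by the complex that represses these genes outside G2, was searched as TTTGAA on both strands. It was found in 13.6% of all promoters and in 20 of 39 matched G2 and mitosis promoters (51.3%), 9 of 16 among members that fell and 11 of 23 among the others. The *TOP2A* promoter held 2 matches, in capitals.
TOP2A, chr17:40417897-40418146, minus strand: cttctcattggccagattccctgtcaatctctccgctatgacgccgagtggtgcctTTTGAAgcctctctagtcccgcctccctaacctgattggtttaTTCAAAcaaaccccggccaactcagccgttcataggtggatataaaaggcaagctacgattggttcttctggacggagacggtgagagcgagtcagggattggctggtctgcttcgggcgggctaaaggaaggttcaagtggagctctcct

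DNA repair genes, relevant to platinum adducts, gave 14 falls and 1 rise of 67 (median -0.19), 7 to 12 falls with 1 array left out and 0 calls with the 6 arrays alone. All 67 were above background on all 6 arrays. The 22.4% called stand beside 16% of all names so detected and 8.83% of all names. *BRCA2* was at 8.82, 8.79 and 8.51 after OXA plus Curcumin and 9.43, 9.25 and 9.33 after OXA. This change of -0.63 (SE 0.08) came with falls of *NBN* (-0.56), of the helicase *BRIP1* (-0.53) and of the translesion polymerase *POLH* (-0.48). *ERCC1* (-0.27), which removes platinum adducts with *ERCC4* (-0.20), was not called, nor was *BRCA1* (-0.23). The gene that rose was *RAD9A* (0.43), a call lost with any 1 array left out. Of 31 genes of platinum transport and conjugation 3 rose and 1 fell (2 to 3 and 0 to 1 with 1 array left out), a share of 12.9% near the 8.83% of all names, among them the glutathione transferase *MGST1* (0.54) and the copper transporter *SLC31A2* (0.39).

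Among regulators of the G1 phase *CDKN1A*, the cyclin-dependent kinase inhibitor p21, was at 8.15, 8.14 and 8.38 after OXA plus Curcumin and 6.69, 6.73 and 6.46 after OXA. The groups lay apart by 1.60 (SE 0.14) (adjusted p = 3.16e-05, limma with BY). The stress-inducible *GADD45B* rose by 1.84 and *GADD45A* by 0.69. Of 30 p53 targets 6 rose and 3 fell with a median of -0.03, HT29 and its sublines being known for mutant p53. Of 17 G1 cyclins and kinase inhibitors 1 rose, *CDKN1A*, and 2 fell, the kinase inhibitor gene *CDKN2A* (-0.37) and the E2F-binding *RB1* (-0.31). Calls made up 30% of the p53 list and 17.6% of the G1 list. These shares stand beside 8.83% of all names and 16% of those above background on all 6 arrays. The *CDKN2A* call was lost with replicate numbers as a block (adjusted p = 0.0659, limma with BY). With 1 array left out 0 to 2 of the 17 fell.

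**Figure D3:**
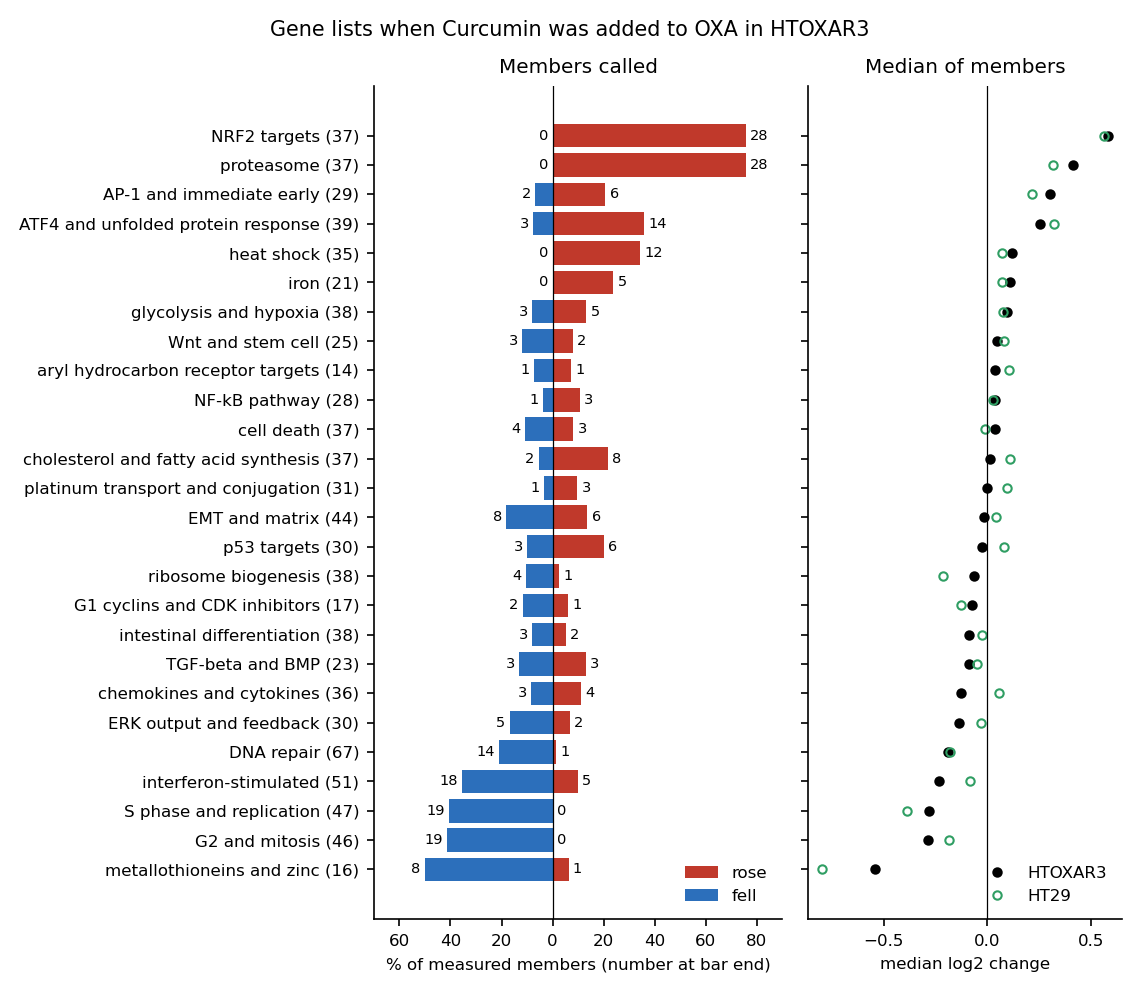
Left, share of the measured members (number in brackets) of 26 gene lists that rose (red) or fell (blue) when Curcumin was added to OXA in HTOXAR3, with the number of genes at the bar end. Right, median log2 change of the same lists in HTOXAR3 (black) and HT29 (green). NRF2 targets and proteasome genes stand at the top with 28 rises each, and metallothioneins at the bottom with 8 falls of 16.

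The other assays of the study turned on NF-κB, its chemokine targets and survival genes. Many of them read protein, phosphorylation or secretion, which the RNA of these genes does not measure. In the qRT-PCR of the study, adding Curcumin to OXA significantly lowered *CXCL8* and *CXCL1* in HTOXAR3. Of 28 NF-κB pathway genes 3 rose and 1 fell (14.3%, median 0.04), a share to read beside the 8.83% of all names and the 16% of those above background on all 6 arrays, and 0 were called with the 6 arrays alone. The subunit gene *NFKB1* was at 11.15, 11.24 and 11.16 after OXA plus Curcumin and 11.60, 11.58 and 11.65 after OXA, a fall of 0.43 with no overlap. *RELA* (0.16, adjusted p = 1, limma with BY) and *NFKBIA* (-0.22, adjusted p = 1) were not called. *TNFAIP2* and *TNIP1* rose by 0.51 and 0.46. *NFKBIB* rose on its brightest probe (0.29) and not on its second (-0.12), and lost its call with replicate numbers as a block (adjusted p = 0.0576, limma with BY) and on leaving out 5 of the 6 arrays in turn (adjusted p up to 0.142).

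Among chemokines *CXCL1* was at 11.66, 11.52 and 11.55 after OXA plus Curcumin and 12.38, 12.24 and 12.22 after OXA. Every array with Curcumin lay below every OXA array, and the change was -0.70 (SE 0.13) with an adjusted p of 0.0221 (limma with BY), but the call was lost with any 1 of the 6 arrays left out (adjusted p from 0.0586 to 0.125). *CXCL8* was at 9.40, 9.08 and 9.24 after OXA plus Curcumin and 10.04, 9.73 and 9.72 after OXA. The groups did not overlap here either, yet the change of -0.59 (SE 0.21) was not called (adjusted p = 0.794, limma with BY). *CXCL2* (-0.26) and *CXCL3* (0.03) were not called, and the sign of *CXCL3* turned with the array left out. Of the receptors *CXCR1* had a change of -0.23, and *CXCR2* was not well above background on any of the 6 arrays.

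In all 4 of 36 chemokine and cytokine genes rose and 3 fell, with 1 to 2 falls when 1 array was left out. The 19.4% called stand beside 8.83% of all names and 16% of those above background on all 6 arrays. The costimulatory ligand *TNFSF9* was at 8.70, 8.65 and 9.01 after OXA plus Curcumin and 6.72, 6.65 and 6.48 after OXA. It rose by 2.17 (SE 0.10), and the interleukin-1 receptor antagonist *IL1RN* (1.19) and *IL1A* (0.42) rose with it. The cytokine *IL18* rose too, from a mean of 7.77 after OXA to 8.97, with 8.81 in untreated HTOXAR3. *CCL5* fell by 1.16, and *CXCL10*, an interferon-induced chemokine not well above background on the arrays with Curcumin, was at least 2.09-fold lower there at the normexp offset of 0 (adjusted p = 0.0145, limma with BY). With offsets of 16 and 50 the fitted change of *CXCL10* was -0.79 and -0.45. The *CXCL10* call was lost on leaving out 4 of the 6 arrays in turn, with an adjusted p up to 0.102.

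Of the survival and proliferation genes *BIRC5*, which encodes Survivin, was at 14.72, 14.84 and 14.71 after OXA plus Curcumin and 15.10, 15.09 and 15.12 after OXA. It fell by 0.35 (adjusted p = 0.00772, limma with BY), and the adjusted p was 0.0582 without OXA plus Curcumin replicate 3. *AKT1* was at 11.89, 11.99 and 11.94 after OXA plus Curcumin and 12.27, 12.49 and 12.44 after OXA. Its change of -0.46 (SE 0.09) had an adjusted p of 0.0311 (limma with BY) and lost its call on leaving out 5 of the 6 arrays in turn (adjusted p up to 0.182) and with replicate numbers as a block (adjusted p = 0.0893). *BCL2* (-0.31) and *CCND1* (-0.02) were not called. Among 37 cell death genes 3 rose, with *BMF* at 1.14 and the decoy receptor *TNFRSF10D* at 1.06, and 4 fell, with *FAS* at -0.52 and *BIK* at -0.49. Their share called, 18.9%, is near the 16% of names above background on all 6 arrays, beside 8.83% of all names.

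**Figure D4:**
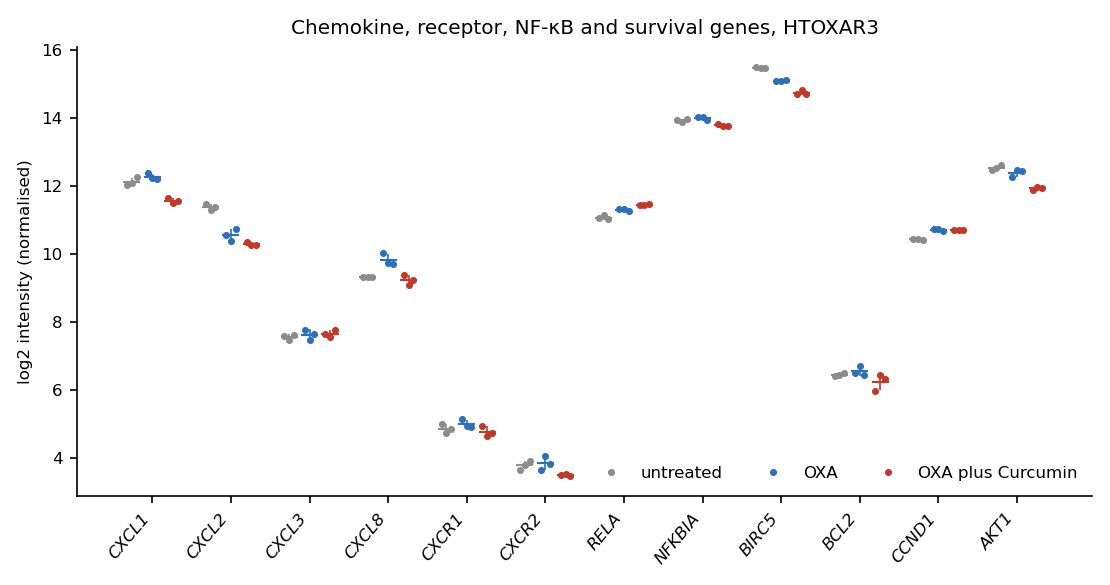
Log2 intensity in HTOXAR3 of 12 chemokine, chemokine receptor, NF-κB and survival genes, for untreated cells (grey), OXA (blue) and OXA plus Curcumin (red). Points are arrays, horizontal lines are means and vertical lines the SD (n = 3), and *CXCL1* lies between 11.52 and 11.66 after the combination and between 12.22 and 12.38 after OXA.

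Signalling and differentiation lists were mixed. Calls made up 27.6% of the AP-1, 23.3% of the ERK output and 31.8% of the epithelial-mesenchymal transition and matrix list. These shares stand beside 8.83% of all names and 16% of those above background on all 6 arrays. Of 29 AP-1 and immediate early genes 6 rose and 2 fell, with a median of 0.30, 0 fell with any 1 array left out and 0 were called with the 6 arrays alone. The rises included *CCN1* at 1.04, *MAFF* at 0.88 and *FOS* at 0.78. Of 30 genes of ERK output 2 rose, the phosphatases *DUSP1* (0.86) and *DUSP5* (0.78), and 5 fell (2 to 3 with 1 array left out), *ETV1* most (-0.66). In epithelial-mesenchymal transition and matrix 6 of 44 rose and 8 fell (5 to 7 with 1 array left out). There the repressor *SNAI1* rose by 1.38, while the protease *PLAU* fell by 0.99 and the matrix protein gene *TGFBI* was at 14.25, 14.29 and 14.19 after OXA plus Curcumin and 15.32, 15.35 and 15.50 after OXA. *TGFBI* was lower on every array with Curcumin, a change of -1.14.

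Of 37 cholesterol and fatty acid genes 8 rose and 2 fell, among them *INSIG1* (1.00), *HMGCS1* (0.80) and *SQLE* (0.54) of the sterol branch, whereas *FASN* fell by 0.35. With 1 array left out 5 to 7 of them rose and 1 fell. Means of *INSIG1* were 10.67 in untreated HTOXAR3, 8.60 after OXA and 9.60 after OXA plus Curcumin. Those of *HMGCS1* were 10.30, 9.05 and 9.85. Of 38 glycolysis and hypoxia genes 5 rose, led by *NDRG1* and the vasodilator peptide gene *ADM* (1.90), and 3 fell, against 3 rises and 1 to 3 falls with 1 array left out. Calls made up 27% of the cholesterol and fatty acid list and 21.1% of the glycolysis and hypoxia list. These shares stand beside 8.83% of all names and 16% of those above background on all 6 arrays. The remaining lists, to be read beside the 8.83% called of all names and the 16% of those above background, had 3 rises and 3 falls of 23 TGF-beta and BMP genes, 2 and 3 of 25 Wnt and stem cell genes, 2 and 3 of 38 intestinal differentiation genes, 1 and 4 of 38 ribosome biogenesis genes and 1 and 1 of 14 aryl hydrocarbon receptor targets. With 1 array left out these became 1 rise and 2 to 3 falls, 1 and 2 to 4, 0 to 2 and 1 to 2, 0 to 1 and 2 to 3, and 1 and 1, and none of the 5 lists held a call with the 6 arrays alone. *CD44* fell by 0.80 on its brightest probe and a dimmer probe gave -0.0023.

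The addition of Curcumin was compared with the same addition in HT29, which used other arrays throughout. Of the names that rose in HTOXAR3, 52.4% also rose in HT29, and these 840 names were 73.9% of those that rose in HT29, where 3.14% of all names rose and 2.39% fell. Of the names that fell in HTOXAR3, 35.3% fell in HT29, which were 65.0% of the HT29 falls. Opposite calls were rare, with 3 names that rose in HTOXAR3 and fell in HT29 and 9 the other way. The difference itself, the HTOXAR3 change minus the HT29 change, was called for 49 names (0.135%), 10 positive (0.0276%) and 39 negative (0.108%). With replicate numbers as a block 10 names were called, and with 1 of the 12 arrays left out between 8, without OXA plus Curcumin replicate 1 of HTOXAR3, and 61. The lines received different OXA doses, so dose and line cannot be told apart.

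*TRIM54* had the largest positive difference, 3.51 (SE 0.17), with a change of 3.56 in HTOXAR3 and 0.04 in HT29. Its means in HT29 were 9.63 untreated, 9.58 after OXA and 9.63 after OXA plus Curcumin. In HTOXAR3 they were 5.84, 6.11 and 9.67, so the combination brought HTOXAR3 to the level HT29 had throughout. The cell cycle regulator *RGCC* rose by 0.78 in HTOXAR3 and fell by 0.48 in HT29, a difference of 1.26. *KPNA7*, an importin alpha, rose in both, by 2.37 and 1.26. Among negative differences *SLC38A10* stood at -2.00, with 1.56 in HT29 and -0.44 (not called) in HTOXAR3, though other *SLC38A10* probes gave -0.06 and 0.48 in HTOXAR3. The folate carrier *SLC19A1* had a difference of -1.71 and *CHLSN* one of -1.39. *TGFBI* had a difference of -0.78. For 3 of the 49 names, among them *APOBEC3C* and the collagen gene *COL8A1* (difference -1.72), no HT29 array compared was well above background, so their HT29 response was not measured. The fitted difference of *APOBEC3C*, -1.32, therefore rests on an undetected HT29 signal. *BOP1*, a ribosome biogenesis factor, rose by 0.86 in HT29 and had a change of -0.37 in HTOXAR3 (difference -1.23). The HTOXAR3 call of *BOP1* was lost with any 1 array left out (adjusted p up to 0.181, limma with BY) and with replicate numbers as a block (adjusted p = 0.128), as was that of *CHLSN* with the block (adjusted p = 0.116).

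**Figure D5:**
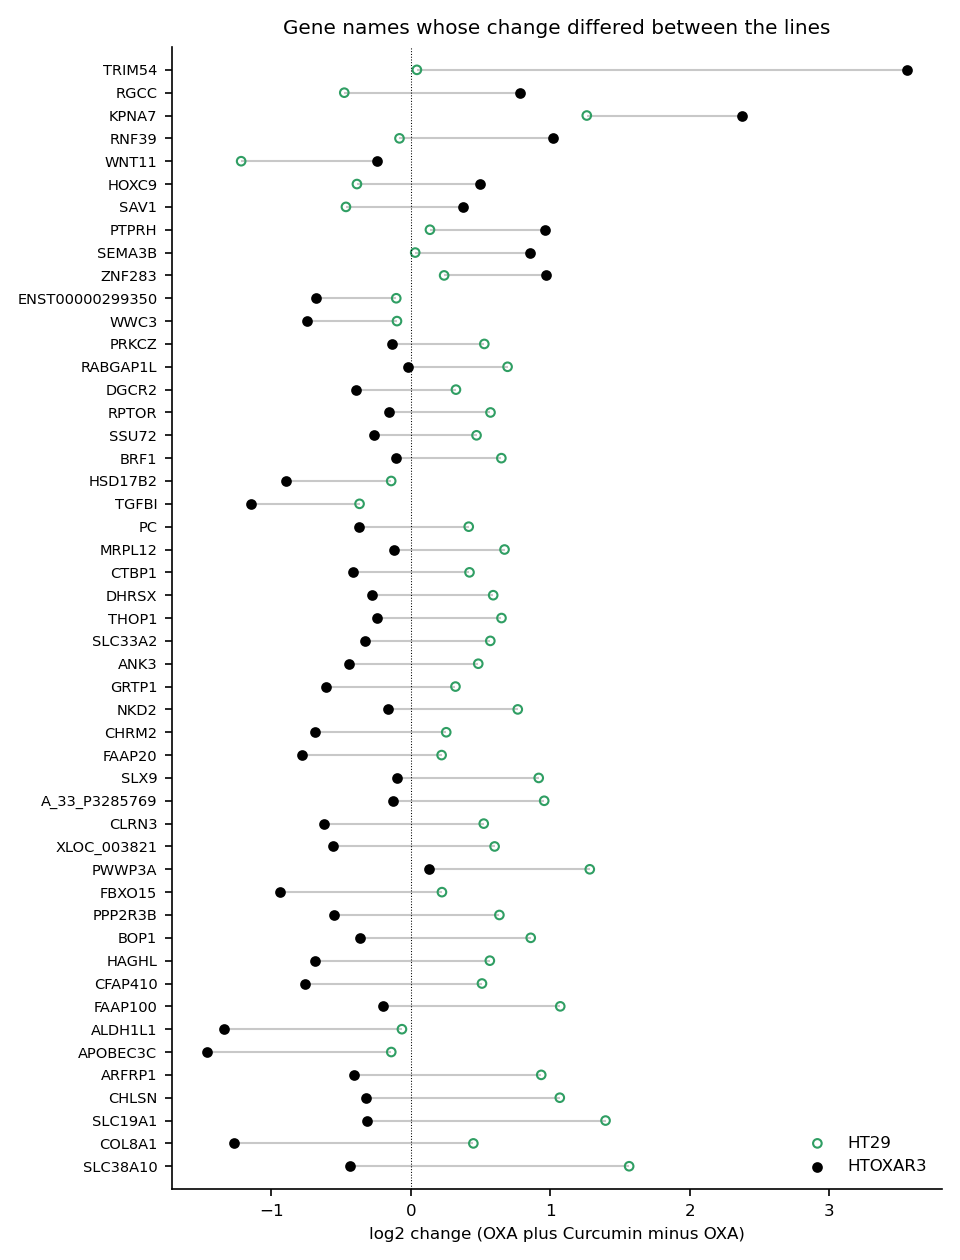
The 49 gene names whose change on adding Curcumin to OXA differed between the lines, with the log2 change in HTOXAR3 (filled) and in HT29 (open). Names are ordered by the difference, from *SLC38A10* at -2.00 to *TRIM54* at 3.51, and 39 of the 49 lie lower in HTOXAR3.

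Among the lists 3 members were called for the difference, *TGFBI*, *BOP1* and the Wnt antagonist *NKD2* (-0.93). No NRF2 target, proteasome, heat shock, interferon-stimulated, S phase or G2 and mitosis list member was. The medians in HT29 stood beside those of HTOXAR3 at 0.56 and 0.58 for NRF2 targets, 0.32 and 0.41 for proteasome genes, and -0.08 and -0.23 for interferon-stimulated genes. The difference between the lines in such a median was not tested.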

How the data were processed

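RNA of 18 samples was measured on one-colour Agilent arrays of 62976 spots. Per the file headers the authors deposited scanner output of Agilent Feature Extraction 10.7.3.1, in which the mean intensity and the local background intensity of a spot are linear and not normalised between arrays, beside a processed intensity with background already subtracted. Log2 values processed by the authors were deposited too, in 36204 lines without names, and served for counts only. Its normexp offset is not given in the sources used here, and its lowest value is 5.65, near the log2 of 50 (5.644), an offset tried here as an alternative.

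Mean intensities were corrected with normexp (offset 0), quantile normalised over non-control spots and set to missing where flagged as outliers. The brightest of a name's probes represented each of 36204 names, and 1 name could not be fitted. Names were updated from RefSeq by accession (21615), symbol (781) or older symbol (240), and 13568 were kept. A model with 6 group terms over 18 arrays (limma 3.58.1, R 4.3.3, data.table version 1.17.8) gave BY adjusted p-values. Tables and figures used Python 3.11.15, pandas 2.3.3 and matplotlib 3.10.9. The model was tested on simulated data. Groups came from the sample labels, and 3 arrays per group limit the precision of every value.

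Same-numbered arrays of the HTOXAR3 groups deviated together (correlations of deviations 0.195, 0.109 and 0.187, all other pairings below 0), so replicate numbers were also fitted as a block. Deviations from a group mean sum to 0, so positive same-numbered values push the other pairings below 0. The pairing comes from these values and from the slides, which same-numbered arrays shared, and the labels describe none. In HT29 the same-numbered correlations were 0.007 to 0.059.

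The comparison, its 26 gene lists and the named genes were chosen with earlier results of these data known. The genes named were the 12 largest rises and 12 largest falls with a symbol and above background on all 6 arrays, up to 4 called and 2 uncalled members of each list, 12 chemokine, chemokine receptor, NF-κB and survival genes and, among names above background on all 12 arrays compared, the 3 largest differences between the lines in each direction. Other list members were named after their values were seen, and some genes are not reported here. A group in which a probe was dim on every array entered a bound on the fold with, for each array, the larger of 2 values, the probe's own and the dimmest value among detected probes. Alternatives were 2 other normexp offsets (16 and 50), scaling of processed or normexp values by their 75th percentile, averaging over a name's probes, removal of dim probes, a fit of the compared arrays alone, BH adjustment, a 2-fold minimum, slide or replicate blocks, the deposited log2 table and leaving out each array.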

Additional observations from a re-analysis of the deposited data

Results flagged for a closer look

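The response to added Curcumin differed between HTOXAR3 and HT29 for 49 gene names by the interaction test (limma with BY adjustment), with 0.135% of all names called. The differences of log2 changes, HTOXAR3 minus HT29, were 3.51 for *TRIM54*, 1.26 for *RGCC* and 1.11 for *KPNA7*. They were -2.00 for *SLC38A10*, -1.71 for *SLC19A1*, -1.39 for *CHLSN*, -1.32 for *APOBEC3C*, -1.23 for *BOP1*, -0.93 for *NKD2* and -0.78 for *TGFBI*. For *APOBEC3C* no HT29 array compared was well above background, so its HT29 response was not measured. The lines received different doses of OXA, so line and dose cannot be told apart. With 3 arrays in each group, single arrays were not tested for standing apart from their group.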

How the results depend on the processing

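The count of names called for adding Curcumin to OXA in HTOXAR3, 3198, lay between 2617 and 4058 under both normexp offsets, both 75th percentile scalings, the mean of all probes, removal of dim probes, the slide block, the replicate block and the deposited table. It was 5125 with BH adjustment, 363 with a 2-fold minimum, 223 with only the arrays compared in the fit, and between 1968 (without OXA plus Curcumin replicate 3) and 2429 with 1 array left out. In the fit of the 6 arrays alone 80.7% of calls were rises, against 50.1%, and with a 2-fold minimum 71.9% were. Within the slide holding replicates 1 and within the slide holding replicates 2 and 3, an alternative chosen after seeing the data, limma called 0 names, with 5170 and 6665 at an unadjusted p below 0.05. The first of these slides holds 1 array of each group, assumed to vary like the other groups. The count for the difference between the lines, 49, was 79 and 181 with normexp offsets of 16 and 50, 139 without dim probes, 5 with only the arrays compared, 323 with BH, 22 with a 2-fold minimum, 146 in the deposited table and 8 to 61 with 1 array left out. It moved by over 1.5 times on leaving out any of the 12 arrays except HT29 OXA plus Curcumin replicate 1 (61), and the lowest value was that without HTOXAR3 OXA plus Curcumin replicate 1. The replicate block, which follows the pairing of the numbers in HTOXAR3, left 10. Among 122 called genes chosen by the naming rule 15 lost their call under the replicate block and 34 with some array left out, and 42 were called with the 6 arrays alone. None of the 122 changed sign under any alternative. *CXCL3*, not called, turned to -0.13 within the slide of replicates 1 and ran from -0.054 to 0.098 with 1 array left out. The median of all names moved from -0.02 to 0.09 and -0.14 under the 75th percentile scalings of the processed and normexp values. Of 26 list medians 19 kept their sign under the 13 alternatives in which they were taken, the other 7 being 0.09 or less in size. List medians were not taken under the slide block, the replicate block or within slides. The causes of these changes were not tested.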

Other observations

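Beyond the lists above, autophagy genes, a set chosen after values were seen, gave 12 rises and 0 falls of 28 (median 0.26), beside 4.43% of all names that rose. After *GABARAPL1*, whose second probe gave 3.32, the ubiquitin-like *MAP1LC3B* (1.44), the early autophagosome protein *WIPI1* (1.27), the kinase *ULK1* (1.07) and the protease *ATG4A* (0.97) rose, whereas *BECN1* (-0.03), *ATG7* (0.03) and *GABARAP* (0.07) were not called. In HT29 8 of the 28 rose, where 3.14% of all names did. Of 26 ubiquitin and p97 genes, also chosen after values were seen, 5 rose and 2 fell, with the segregase *VCP* at 0.57 and its cofactor *UFD1* at 0.71. Among the 5 is *ZFAND2A*, which is in the heat shock list too. Over all names 8.83% were called, and 16% of those above background on all 6 arrays.

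The APOBEC3 deaminases, also chosen after values were seen, gave 3 falls and 1 rise of 7, beside 8.83% of all names and 16% of those above background on all 6 arrays that were called. *APOBEC3G* (-2.03), *APOBEC3C* (-1.46) and *APOBEC3F* (-1.43) fell, *APOBEC3B* (0.20) was not called, and *APOBEC3A*, above background on 2 of 6 arrays and on none with OXA, was at least 2.46-fold higher after OXA plus Curcumin at the normexp offset of 0. These genes share sequence, so their probes may not be independent. Of 14 class I HLA and peptide loading genes, to be read beside the same shares, 6 rose and 1 fell, the latter the loading factor *TAPBP* (-0.36), with *CALR* and *PDIA3* at 0.44 each.

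Of the 39 names with a negative difference between the lines, 26 (66.7%) had their probe within 5 Mb of the outermost probe of their chromosome, against 14.8% of all names with a position and 16.1% of those above background on all 12 arrays. With replicate numbers as a block 8 negative differences were called. Of the 10 positive differences 1 lay there. The 39 names had a median change of -0.41 in HTOXAR3 and 0.57 in HT29. Some lie close together, such as *SLC38A10*, *FAAP100*, *MRPL12* and *RPTOR* on chromosome 17, and may not be independent. For names above background on all 12 arrays the median difference was -0.016 within 1 Mb of the outermost probe and 0.011 at 20 to 50 Mb.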
